A study of Mus musculus with 25 samples.

Results

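The genes described here are the 38 aminoacyl-tRNA synthetase genes and scaffold genes that were found by symbol among the 30926 rows of a normalised expression table. They comprise 20 genes of cytosolic enzymes, 16 genes of mitochondrial enzymes, whose symbols end in 2, and 2 scaffold genes of the cytosolic multisynthetase complex, Aimp1 and Aimp2. Aimp2 also ends in 2 but is no mitochondrial enzyme, so it was kept with Aimp1. All 38 symbols had the same name in the GENCODE M21 annotation, and all 38 passed the filter on low values.

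Messenger RNA was measured in KPC cells, a pancreatic ductal adenocarcinoma line of C57BL/6 mouse background, in 25 libraries that fell into 5 groups of 5. The control group was the parental line in complete DMEM and the starved group was the parental line after 24 h in DMEM without glutamine. The other 3 groups were also starved of glutamine, and carried a short hairpin RNA. It was directed at luciferase in the hairpin control (shLuc), and at Slug, the protein of Snai2 that represses epithelial genes, in shSlug1 and shSlug2, each with its own hairpin. The glutamine-free medium held 10% dialysed serum, and the labels leave unclear whether the serum of the complete medium was dialysed too, so the loss of glutamine and a change of serum cannot be told apart. Time and serum percentage were recorded as 24 h and 10% for all 25 libraries. No hairpin line was measured in complete medium. The labels name neither vector, promoter nor clonality of the hairpin lines, nor do they say that replicates were separate cultures, so a p-value covers the spread between these libraries, which may be technical.

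Aminoacyl-tRNA synthetases load each amino acid onto its transfer RNA. The nuclear genome encodes one set for translation in the cytosol and a largely separate set that is imported into mitochondria, while a few genes, Gars and Kars among them, give both forms. Uncharged transfer RNA activates the kinase GCN2 (Eif2ak4), which raises translation of the transcription factor ATF4, and many genes of cytosolic synthetases are known ATF4 targets that carry a C/EBP-ATF response element near their start.

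Levels are given as CPM, in which the authors set every library to one common total. Libraries were read at the 3' end of transcripts, so the values are not divided by transcript length. The totals behind them were small, from 158729 counts in starved replicate 3 to 549893 in starved replicate 4, and 1 count was worth 1.82 to 6.30 CPM. The share of counts from the mitochondrial genome ran from 14.2% to 28.0%. Snai2, the target of the hairpins, held 55.9 ± 24.0 CPM (SD, n = 5) with shLuc, against 6.09 ± 3.75 in shSlug1 libraries and 4.29 ± 2.89 in shSlug2 libraries, and was 7.54 ± 5.42 in complete medium and 79.5 ± 14.5 in starved parental cells. Summed over 6 epithelial marker genes the libraries held 1972 to 6295 CPM, against 0 to 15.3 CPM over 7 fibroblast markers, 0 to 16.9 over 4 endothelial markers and 4.29 to 81.5 over the 4 of 6 leucocyte markers in the table. The 2 of 4 acinar markers in the table summed to 0 to 41.7 CPM, and the 3 of 4 islet markers to 0 to 7.22. In such bulk samples, fewer cells of a type and less RNA per cell cannot be told apart.

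The element that ATF4 binds was looked for at the start of the members, since it is the sequence feature by which the cytosolic genes are best known to respond to amino acid loss. Promoters of 300 bases, 250 before to 50 after the start of transcription, were taken from RefSeq on GRCm38.p6 and matched 28 of the 38 members. The core motif TGATGNAA was searched on both strands (TTNCATCA on the other). A promoter with it was found for 1219 of 27025 genes in the RefSeq table (4.51%). Among the members with a promoter it stood in 5 of 12 cytosolic genes (41.7%), 0 of 14 mitochondrial and 0 of 2 scaffold genes. The 5 were Aars, Gars, Iars, Tars and Yars, of alanyl-, glycyl-, isoleucyl-, threonyl- and tyrosyl-tRNA synthetase. Eprs, Farsb and Sars, which also rose in starved cells, held no match. No promoter was found for Cars, Hars, Lars, Mars, Nars, Rars, Vars, Wars, Hars2 and Pars2, of which Lars, Nars and Rars rose. The promoters with a match are printed here on the strand of the gene, with the motif in capitals. Beside them is that of Kars, the lysyl enzyme, which held no match and is the cytosolic gene that fell in starved cells.
Aars, chr8:111033592-111033891, plus strand: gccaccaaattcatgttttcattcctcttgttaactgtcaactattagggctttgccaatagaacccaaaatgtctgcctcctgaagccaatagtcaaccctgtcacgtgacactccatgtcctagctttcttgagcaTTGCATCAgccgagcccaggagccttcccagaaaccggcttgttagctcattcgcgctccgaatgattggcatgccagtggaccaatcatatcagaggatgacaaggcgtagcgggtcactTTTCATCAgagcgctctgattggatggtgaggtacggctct
Gars, chr6:55037751-55038050, plus strand: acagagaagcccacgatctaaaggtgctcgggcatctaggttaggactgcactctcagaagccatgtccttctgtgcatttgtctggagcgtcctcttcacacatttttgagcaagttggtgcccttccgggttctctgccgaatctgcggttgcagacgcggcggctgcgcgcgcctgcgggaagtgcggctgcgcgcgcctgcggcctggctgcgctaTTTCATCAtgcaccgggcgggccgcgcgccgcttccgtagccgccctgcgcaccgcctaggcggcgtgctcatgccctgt
Iars, chr13:49681880-49682179, plus strand: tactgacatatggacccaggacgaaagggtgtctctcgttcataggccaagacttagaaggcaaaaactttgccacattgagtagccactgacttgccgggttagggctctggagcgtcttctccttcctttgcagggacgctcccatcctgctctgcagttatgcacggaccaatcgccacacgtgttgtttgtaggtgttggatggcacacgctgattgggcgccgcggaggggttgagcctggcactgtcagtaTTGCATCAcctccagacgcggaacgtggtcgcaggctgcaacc
Tars, chr15:11399609-11399908, minus strand: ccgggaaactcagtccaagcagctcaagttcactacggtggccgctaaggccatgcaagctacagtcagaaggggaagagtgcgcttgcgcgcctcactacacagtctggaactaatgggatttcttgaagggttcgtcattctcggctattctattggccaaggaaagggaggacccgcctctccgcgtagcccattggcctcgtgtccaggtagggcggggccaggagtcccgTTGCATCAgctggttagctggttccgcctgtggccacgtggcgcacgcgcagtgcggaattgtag
Yars, chr4:129189653-129189952, plus strand: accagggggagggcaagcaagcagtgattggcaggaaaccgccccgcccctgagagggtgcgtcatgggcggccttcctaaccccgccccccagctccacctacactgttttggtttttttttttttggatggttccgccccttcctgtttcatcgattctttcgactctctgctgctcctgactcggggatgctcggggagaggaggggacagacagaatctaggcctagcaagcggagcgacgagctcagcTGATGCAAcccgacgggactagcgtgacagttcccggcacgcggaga
Kars, chr8:112011305-112011604, minus strand: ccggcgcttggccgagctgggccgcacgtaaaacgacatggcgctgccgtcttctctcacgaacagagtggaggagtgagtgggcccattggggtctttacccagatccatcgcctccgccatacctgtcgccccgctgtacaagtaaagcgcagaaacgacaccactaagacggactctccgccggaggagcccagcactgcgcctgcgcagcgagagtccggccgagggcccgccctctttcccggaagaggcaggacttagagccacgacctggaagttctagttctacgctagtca
In Aars the motif occurred at 2 places, 112 bases before the start and 9 bases after it. In Gars and Tars it lay 30 and 15 bases before the start, and in Iars and Yars 7 and 3 bases after it. A match is a description of these letters and not of a bound site.

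The first comparison asked what glutamine withdrawal did to the parental line. Of the 20 cytosolic genes 11 rose (Aars, Eprs, Farsb, Gars, Iars, Lars, Nars, Rars, Sars, Tars and Yars), 1 fell (Kars) and 8 were not called. Of the 16 mitochondrial genes none rose, Vars2 fell and 15 were not called. Among all 12473 genes tested, limma called 22.4% in either direction, 10.8% higher and 11.7% lower, at an adjusted p under 0.05. The cytosolic genes had a median log2 change of 0.83 and the mitochondrial genes one of -0.32, beside -0.06 over all genes tested. For genes with few counts such a change can differ from the ratio of means. Summed CPM of the mitochondrial genes overlapped, at 382 ± 27.3 in control and 340 ± 56.6 in starved libraries. The mean total was 361124 counts in control and 285372 in starved libraries. Whether the mitochondrial set as a whole changed was not tested. The mitochondrial median moved both ways with the settings. It was -0.048 at a minimum of 20 CPM, -0.16 with edgeR and -0.15 with DESeq2. Without starved replicate 1 it was -0.17, and without starved replicate 5 -0.21. On the other side it was -0.43 with libraries thinned to the shallowest, -0.40 without starved replicate 3 and -0.39 without starved replicate 2. The changes were not measured equally well: the standard errors (SE) had a median of 0.19 on the log2 scale for the cytosolic genes and 0.57 for the mitochondrial ones, which had few counts, beside 0.48 over all genes. Of the 6 epithelial markers 5 (Krt8, Krt18, Krt19, Cdh1 and Muc1) fell and Sox9 rose, from 13.3 to 33.4 CPM, and their sum was 1972 to 2571 CPM in starved and 4002 to 5052 in control libraries. The leucocyte markers summed to 9.41 to 31.5 CPM in starved and 55.1 to 81.5 in control libraries, nearly all of it Cd14, which fell from 68.7 to 18.9 CPM, while Ptprc and Csf1r were at 0 in both groups. The part of these markers in the results was not tested.

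**Figure D1:**
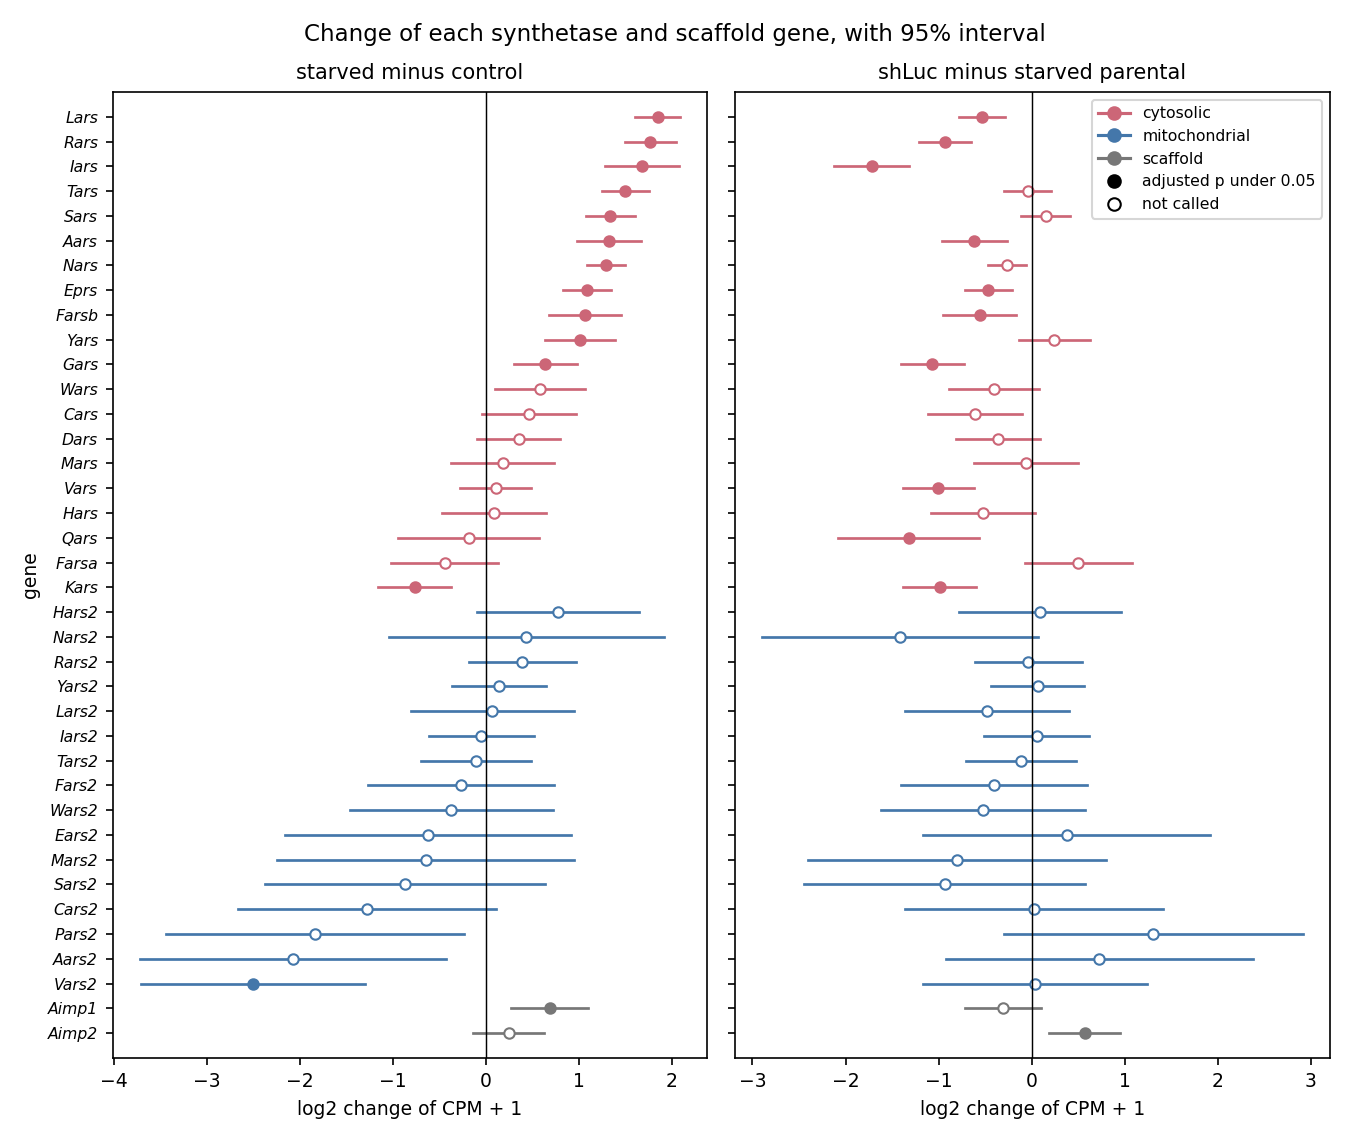
Log2 change of CPM + 1 (horizontal axis) of each of the 38 genes (vertical axis) in starved against control cells and in shLuc against starved parental cells, with 95% intervals, filled where the adjusted p was under 0.05. In the first panel 11 cytosolic genes lie to the right of 0 with filled points and Kars to the left, while 15 of 16 mitochondrial genes have open points and wide intervals; in the second panel all 10 filled cytosolic points lie to the left of 0.

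The 3 largest ratios were those of Lars, Rars and Iars, whose enzymes charge leucine, arginine and isoleucine as members of the multisynthetase complex. Lars (chromosome 18, 42202298 to 42262194, minus strand, mm10) read 112, 142, 146, 129 and 129.6 CPM in the control libraries and 497, 474, 454, 471 and 479.7 in the starved ones. Its mean rose 3.61-fold from 132 ± 13.1 to 475 ± 15.8 CPM (SD, n = 5), a log2 change of 1.85 (SE 0.12, limma adjusted p = 1.05e-19). The lowest starved library lay above 3 times the highest control library.

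Rars (chromosome 11, 35808381 to 35834506, minus strand) read 96.4, 82.7, 87.9, 114 and 97.2 CPM in complete medium and 296, 380.4, 315, 324 and 325 without glutamine. It rose 3.43-fold to 328 ± 31.4 CPM, a log2 change of 1.77 (SE 0.14, limma adjusted p = 1.51e-16). Iars (chromosome 13, 49682100 to 49734267, plus strand) read 72.3, 47.3, 87.9, 52.7 and 75.6 CPM in control libraries and 210.4, 271, 176, 196 and 216 in starved ones, a rise of 3.19-fold (log2 change 1.68, SE 0.20, limma adjusted p = 6.57e-10). For both genes every starved library was above every control library. That held for all 11 genes that rose, beside 7.46% of all genes tested, and in reverse for Kars and Vars2, beside 8.27%.

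Tars, Sars and Nars encode enzymes that charge threonine, serine and asparagine and stand outside the complex. Tars (chromosome 15, 11382301 to 11399665, minus strand) read 155, 149.7, 167, 138 and 135 CPM in control libraries and 347, 417, 491, 420.1 and 447 in starved ones, a 2.85-fold rise (log2 change 1.5, SE 0.13, limma adjusted p = 3.14e-15). Sars read 123, 102, 146, 123 and 157 CPM and then 290.1, 354, 347, 296 and 353, a 2.52-fold rise (log2 change 1.34, SE 0.13, limma adjusted p = 1.21e-12). Again no starved library reached down to a control library. Nars (chromosome 18, 64499647 to 64516652, minus strand) read 512, 402, 506, 445 and 375 CPM in complete medium and 1119, 1172, 964, 1086 and 1124 without glutamine, a 2.44-fold rise (log2 change 1.29, SE 0.10, limma adjusted p = 4.86e-16). Asparagine is made from aspartate with glutamine as nitrogen donor, by the product of Asns, which rose from 100.2 ± 21.0 to 416 ± 54.0 CPM.

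Eprs encodes a double enzyme that charges glutamate and proline. It read 228, 264, 234, 240.2 and 197 CPM in control libraries and 465, 552, 536, 453 and 470.3 in starved ones, a 2.13-fold rise (log2 change 1.09, SE 0.13, limma adjusted p = 3.43e-10). Aars, of the alanyl enzyme, read 163, 169, 141, 99.6 and 119 CPM in control libraries and 299.6, 365, 459.9, 278 and 334 in starved ones, a 2.51-fold rise (log2 change 1.32, SE 0.17, limma adjusted p = 9.57e-09). The last exon of Aars overlaps an exon of Exosc6 on the same strand, and Exosc6 moved the other way, from 143 to 77.6 CPM.

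The 3 smaller rises were those of Farsb, Yars and Gars. Farsb, the beta subunit of the phenylalanyl enzyme, rose 2.09-fold from 62.7 ± 10.7 to 131 ± 17.3 CPM (limma adjusted p = 1.77e-05), while Farsa, the alpha subunit of the same enzyme, read 47.2 ± 10.8 and 38.3 ± 18.4 CPM and was not called (adjusted p = 0.298). The interval of the Farsa change ran from -1.02 to 0.13 on the log2 scale and did not reach the 0.67 at which that of Farsb began. The difference between the subunits was not tested.

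Yars, of the tyrosyl enzyme, read 53.6, 63.0, 47.2, 55.7 and 32.4 CPM in control libraries and 92.4, 93.8, 164, 89.1 and 80.0 in starved ones, a 2.06-fold rise (log2 change 1.01, SE 0.19, limma adjusted p = 2.62e-05). The highest value is that of starved replicate 3, the library with the fewest counts. The last exon of Yars overlaps an exon of C77080 on the opposite strand, whose level went from 54.6 to 120.3 CPM. Whether the counting used strand is not stated, so reads of the 2 genes cannot be told apart there. Gars, which encodes both the cytosolic and the mitochondrial glycyl enzyme, rose 1.56-fold from 172 ± 29.2 to 267 ± 39.0 CPM (limma adjusted p = 0.00302).

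Kars encodes both the cytosolic and the mitochondrial lysyl enzyme and fell while its partners in the complex rose or were not called. It read 171, 161, 165, 199 and 229 CPM in complete medium and 147, 99.0, 94.5, 105 and 98.8 without glutamine. The mean was 1.70-fold lower, at 109 ± 21.5 against 185 ± 28.8 CPM (log2 change -0.77, SE 0.20, limma adjusted p = 0.00219), and the groups did not overlap. With every library thinned to the depth of the shallowest the adjusted p was 0.0513.

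Qars encodes the enzyme that charges glutamine, the amino acid left out of the medium, and was not called. It read 69.6, 47.3, 81.5, 70.3 and 29.7 CPM in control libraries and 41.4, 57.3, 56.7, 38.2 and 56.4 in starved ones. The log2 change of -0.19 had a 95% interval from -0.95 to 0.57 (limma adjusted p = 0.799), and the groups overlapped. The other cytosolic genes that were not called were Cars, Dars, Hars, Mars, Vars and Wars, with log2 changes from 0.08 to 0.58. Wars, of the tryptophanyl enzyme, was nearest to the threshold at 82.4 ± 20 against 54.8 ± 14.5 CPM (limma adjusted p = 0.0737). The edgeR test on recovered counts put it at 0.0453, and limma called it without control replicate 2 (0.0451) or without starved replicate 2 (0.0364). Vars, of the valyl enzyme, read 165 ± 42.1 and 149.5 ± 20.4 CPM, with an interval of the log2 change from -0.27 to 0.49. The last exon of Mars, of the methionyl enzyme, overlaps an exon of Ddit3 on the opposite strand, and Ddit3, an ATF4 target, rose from 10.5 to 60.1 CPM while Mars read 45.9 ± 18.5 and 50.8 ± 16.5 CPM.

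**Figure D2:**
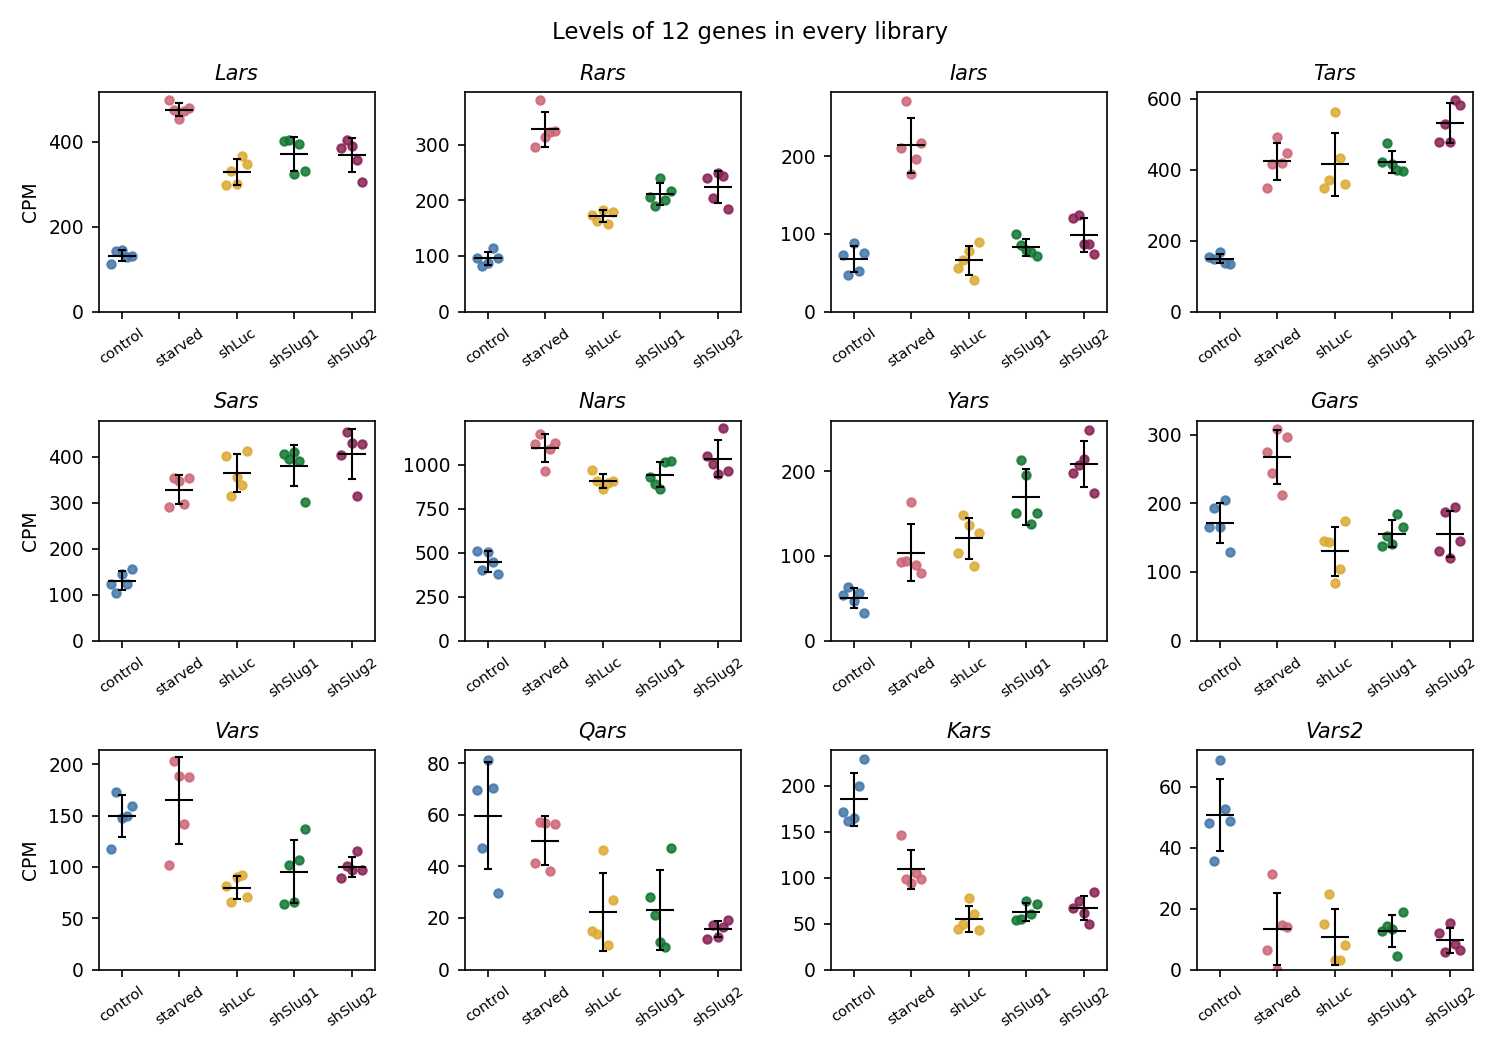
CPM (vertical axis, from 0) of 12 genes, chosen after their values were seen, in each of the 25 libraries (points) by group, with mean and SD. Lars, Rars, Iars, Tars, Sars and Nars stand clear of the control libraries in starved parental cells. The mean of Iars with shLuc, 66.0 CPM, lies within the range of the control libraries, and Yars is highest with shSlug2 at 208 CPM.

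The scaffold genes hold the multisynthetase complex together. Aimp1 read 34.8, 82.7, 75.0, 87.9 and 86.4 CPM in control libraries and 128, 99.0, 119.7, 111 and 108 in starved ones, a 1.54-fold rise (log2 change 0.68, SE 0.21, limma adjusted p = 0.00998). Control replicate 1 was the lowest of its group by a wide margin, and without it the log2 change was 0.44 with an adjusted p of 0.111. The adjusted p was 0.114 after thinning. Aimp2 read 142, 74.8, 122, 61.5 and 62.1 CPM in control libraries and 79.7, 135, 88.2, 92.7 and 132 in starved ones, so the groups overlapped (log2 change 0.24, 95% interval -0.14 to 0.62, limma adjusted p = 0.411). Of the 8 cytosolic enzymes of the complex (Dars, Eprs, Iars, Kars, Lars, Mars, Qars and Rars) 4 rose and 1 fell, and of the other 12 cytosolic genes 7 rose and none fell. That split was chosen after values were seen.

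Among mitochondrial enzymes only Vars2, of the valyl enzyme (chromosome 17, 35655634 to 35667592, minus strand), was called. It read 48.2, 35.4, 68.6, 52.7 and 48.6 CPM in complete medium and 6.38, 31.3, 0, 14.5 and 14.1 without glutamine. The mean was 3.82-fold lower, at 13.3 ± 11.7 against 50.7 ± 11.9 CPM (log2 change -2.51, SE 0.60, limma adjusted p = 0.00104). No starved library reached the lowest control library, although the count of 0 in starved replicate 3 allows up to 18.9 CPM. In the hairpin lines, which were all starved, the Vars2 level was 10.8 ± 9.16 CPM for shLuc, 12.7 ± 5.29 for shSlug1 and 9.57 ± 4.03 for shSlug2, and limma called it in none of the comparisons among starved groups. The gene lies on the same chromosome as Vars and opposite to it in strand, and Vars was not called.

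Aars2, Pars2 and Cars2, of the alanyl, prolyl and cysteinyl enzymes, had the next smallest p and only a few counts each. Aars2 read 10.7, 3.94, 2.14, 17.6 and 13.5 CPM in control libraries and 0, 0, 0, 5.46 and 4.70 in starved ones (log2 change -2.08, 95% interval -3.73 to -0.43, limma adjusted p = 0.0616). Pars2 read 10.7, 3.94, 8.57, 5.86 and 0 CPM and then 0, 0, 0, 5.46 and 0 (log2 change -1.84, interval -3.45 to -0.24, adjusted p = 0.0934). Both pairs of groups overlapped. Cars2 read 10.7, 23.6, 17.1, 11.7 and 16.2 CPM and then 3.19, 15.6, 6.30, 3.64 and 4.70 (log2 change -1.28, interval -2.67 to 0.10, adjusted p = 0.193), with starved replicate 2 alone inside the control range. Leaving out 1 library brought Aars2 under the threshold in 3 cases (without control replicate 3, 0.039; without starved replicate 4, 0.0312; without starved replicate 5, 0.0365). It brought Pars2 under it in 2 (without control replicate 5, 0.028; without starved replicate 4, 0.0321).

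Of the mitochondrial genes with narrower intervals none was called. Iars2, of the isoleucyl enzyme, read 53.1 ± 14.0 CPM in control and 52.6 ± 18.2 in starved libraries, and the 95% interval of its log2 change ran from -0.61 to 0.51. For Yars2, of the tyrosyl enzyme, 48.9 ± 6.73 and 55.5 ± 16.2 CPM gave an interval from -0.36 to 0.64. Rars2, of the arginyl enzyme, read 32.7 ± 5.87 and 43.1 ± 5.95 CPM, with an interval from -0.18 to 0.97. Tars2, of the threonyl enzyme, read 34.5 ± 9.25 and 33.2 ± 12.1 CPM, with an interval from -0.70 to 0.48. Each of these intervals lay below that of the cytosolic gene for the same amino acid except for Yars2, whose interval just met that of Yars. The other 8 genes (Ears2, Fars2, Hars2, Lars2, Mars2, Nars2, Sars2 and Wars2) had log2 changes from -0.87 to 0.77, and intervals that all held 0.

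The 2 sets were set side by side by amino acid in 17 pairs, in which Eprs and Fars2 each stand in 2 pairs. The cytosolic change was above the mitochondrial one in 15 pairs and below it in 2, those of Farsa with Fars2 and of Hars with Hars2. In 7 pairs the log2 ratio of cytosolic to mitochondrial gene was higher in every starved library than in any control library, in 0 pairs lower, and in 10 the groups overlapped. The 7 were the isoleucine, leucine, arginine, serine, threonine, valine and tyrosine pairs. No share over other pairs of genes was taken. The 11 cytosolic genes that rose were clear of their control libraries alone, so the count partly restates those changes. Some pairs rest on mitochondrial genes of few counts, with SEs up to 0.83, against 0.38 at most for cytosolic genes. The Mars change was 0.83 above that of Mars2, with neither gene called. Mean CPM there went from 45.9 to 50.8 for Mars and from 12.3 to 11.8 for Mars2. The log2 ratio of Iars to Iars2 went from a mean of 0.34 to 2.07, with 0.57 as the highest control and 1.21 as the lowest starved library. For Rars over Rars2 it went from 1.53 to 2.91, with 1.96 and 2.61 as these bounds. The valine pair reached a like separation, 1.56 to 4.18, in which Vars2 fell and Vars was not called.

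**Figure D3:**
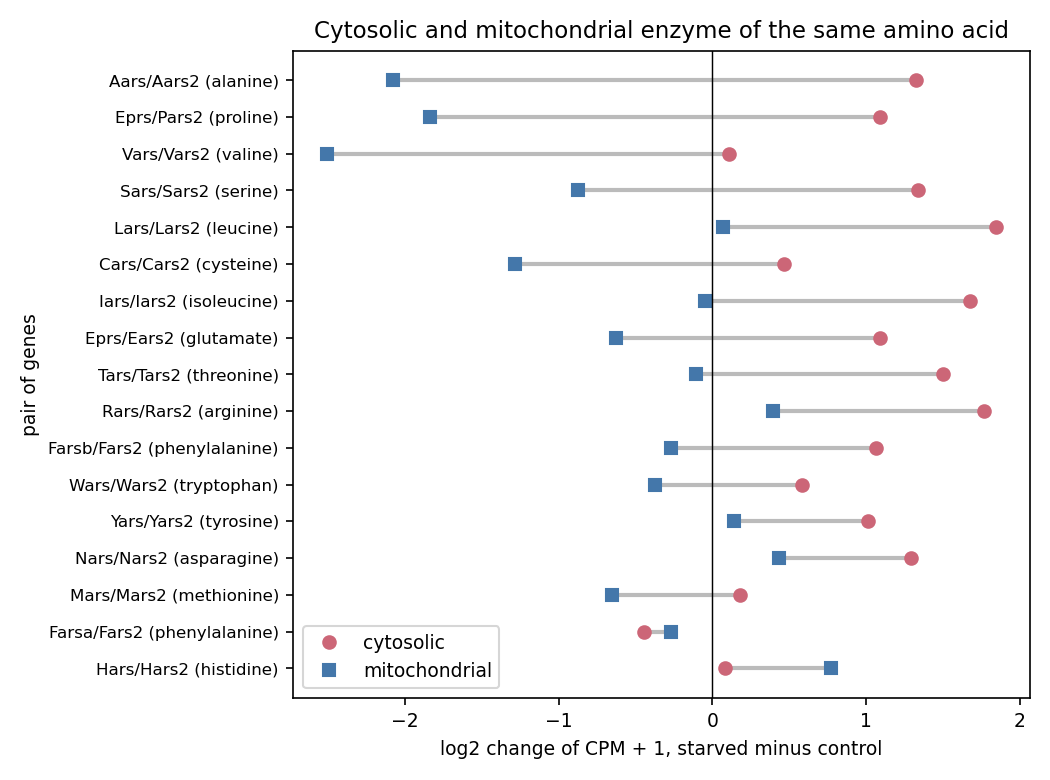
Log2 change of CPM + 1 between starved and control cells (horizontal axis) for the cytosolic (circles) and the mitochondrial (squares) gene of each of 17 pairs by amino acid (vertical axis), ordered by their difference and drawn without error bars. The circle lies to the right of the square in 15 pairs, and the pair of Hars and Hars2 shows the reverse order at 0.08 and 0.77.

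Summed over the 20 genes, cytosolic synthetase RNA was 2450, 2407, 2495, 2478 and 2170.4 CPM in control libraries and 4737, 5138, 5103, 4661 and 4995 in starved ones, with means of 2400.1 ± 133 and 4927 ± 216. The 16 mitochondrial genes summed to 375, 354, 373, 428 and 378 CPM in control libraries and 268, 417, 372, 324 and 319.8 in starved ones. The first sum was 2.05-fold higher without glutamine with no overlap, and the second overlapped between the groups. The ratio of the sums was 5.74 to 6.79 in control libraries and 12.3 to 17.7 in starved parental ones, and 9.67 to 17.6 over the 15 hairpin libraries. Every starved library, with or without a hairpin, thus lay above every control library in this ratio.

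**Figure D4:**
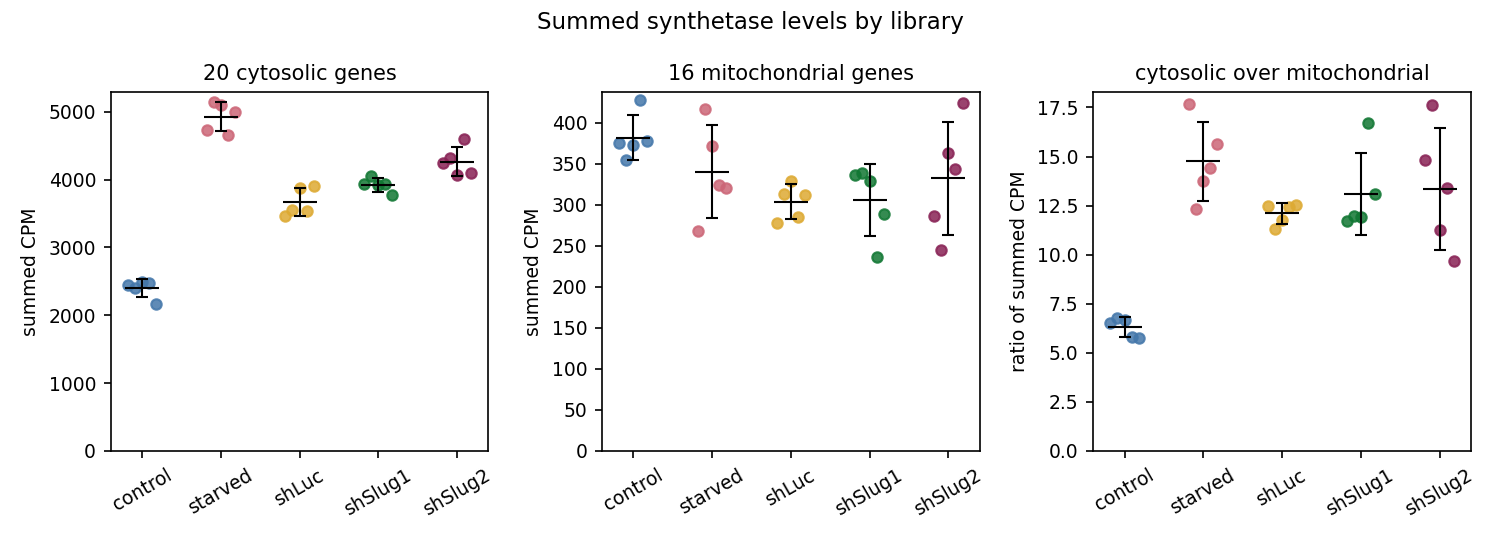
Summed CPM of the 20 cytosolic genes, summed CPM of the 16 mitochondrial genes, and their ratio (vertical axes, from 0) in each library (points) by group, with mean and SD. The cytosolic sum is 2170 to 2495 CPM in control libraries and 4661 to 5138 in starved parental ones with the hairpin groups between, while the mitochondrial sums overlap.

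Genes of the same pathways were counted beside the members. In starved against control cells limma called 10.8% of all genes tested higher and 11.7% lower. Of 16 genes of the amino acid response 14 rose and none fell, with a median log2 change of 1.34: Nupr1, a stress-induced chromatin protein, went from 48.0 ± 11.8 to 608 ± 75.2 CPM, Atf4 from 104 ± 13.1 to 429.6 ± 39.7, and Trib3, an inhibitor of ATF4, from 8.13 ± 4.20 to 108 ± 17.4. Eif2ak4, the kinase GCN2 itself, and its partner Gcn1l1 were not called. In this list the TGATGNAA motif stood in 5 of the 14 genes with a promoter (35.7%). Among the members it stood in 5 of the 8 risen cytosolic genes with a promoter in the table, in 0 of 3 that were not called and in Kars not. Over all genes with a promoter the share was 4.51%. These groups are small, and the risen Lars, Nars and Rars had no promoter to search. Any link between motif and change was not tested. Of 8 factors that handle transfer RNA or the charged product 2 rose and none fell: Eef1e1, a small protein of the multisynthetase complex, from 52.7 ± 12.4 to 77.3 ± 18.8 CPM (limma adjusted p = 0.0332), and Ptrh2, a peptidyl-tRNA hydrolase, from 50.1 ± 15.6 to 73.1 ± 11.2 (limma adjusted p = 0.0401).

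Of 16 other genes of mitochondrial translation none rose and 3 fell, beside 10.8% and 11.7% of all genes tested. Their median log2 change was -0.19, beside -0.06 over all genes tested. Tufm, the mitochondrial elongation factor Tu, fell from 63.5 ± 15.1 to 22.5 ± 6.11 CPM (log2 change -1.46, limma adjusted p = 0.00133). Mtfmt, which formylates the initiator methionyl-tRNA, fell from 15.6 ± 4.59 to 4.08 ± 4.63 CPM (limma adjusted p = 0.0108), and Ptcd3, a protein of the small mitochondrial ribosomal subunit, from 75.2 ± 7.72 to 43.2 ± 7.49 (limma adjusted p = 0.0258). Mitochondria have no glutaminyl enzyme of their own among the members. The 3 subunit genes of the amidotransferase that makes glutaminyl-tRNA there, Gatb, Gatc and Qrsl1, read 15.7, 22.6 and 6.54 CPM in starved cells and 9.32, 21.7 and 11.1 in control cells, and were not called.

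The second comparison set the shLuc line against the parental line, both without glutamine, and so measures what the hairpin control line differs in. It shares its starved libraries with the first comparison, so the 2 are not independent. Of the 20 cytosolic genes 10 were lower with shLuc (Aars, Eprs, Farsb, Gars, Iars, Kars, Lars, Qars, Rars and Vars) and none was higher, while limma called 23.6% of all genes, 13.5% higher and 10.1% lower. The share of those calls that were higher was 57.1%, and was 64.8% with TMM scaling and 48.1% with totals taken without mitochondrially encoded genes. For 7 of the 10 (all but Aars, Farsb and Qars) every shLuc library was below every starved parental one, as it was for 7.28% of all genes. The 20 cytosolic genes had a median log2 change of -0.53 beside 0.10 over all genes. Of the 16 mitochondrial genes 0 were called by limma, by edgeR or by DESeq2, 0 had an unadjusted p under 0.05, and their median was -0.004, between 0.07 with TMM scaling and -0.22 after thinning. The mean share of counts from the mitochondrial genome was 25.1% in starved parental and 19.8% in shLuc libraries. With totals taken without those genes 12 cytosolic genes were called. The epithelial markers summed to 4765 to 6227 CPM with shLuc, of which Krt18 alone held 5087 ± 540.3. Krt8, Krt18, Krt19 and Muc1 were higher than in starved parental cells, but Krt8 (282 CPM), Krt19 (211) and Muc1 (47.9) were below their control means of 704, 684 and 170.1, and Cdh1 (49.4 against 75.1) and Sox9 (19.8 against 33.4) were not called. The leucocyte markers summed to 9.30 to 35.7 CPM with shLuc. The part of these markers in the results was not tested.

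Iars differed most. It read 55.6, 66.0, 77.5, 41.1 and 89.6 CPM with shLuc against 176 to 271 in starved parental libraries, a 3.25-fold lower mean (log2 change -1.72, SE 0.20, limma adjusted p = 6.71e-10). These levels overlap those of parental cells in complete medium, 47.3 to 87.9 CPM. Rars read 174, 162, 183, 158 and 179 CPM with shLuc, 1.91-fold lower than in starved parental libraries (log2 change -0.93, SE 0.14, limma adjusted p = 3.99e-07), and still above its highest control library. Lars read 297, 329.9, 301, 367 and 347 CPM, 1.45-fold lower (log2 change -0.54, SE 0.12, limma adjusted p = 0.00063), and also stayed above every control library.

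Gars, Vars, Kars and Qars were about as low as in complete medium or lower. Gars read 145, 143, 83.7, 104 and 174 CPM with shLuc, 2.06-fold lower than in starved parental cells (log2 change -1.07, SE 0.17, limma adjusted p = 1.33e-06). Vars, which was not called in starvation of the parental line, read 81.6, 66.0, 89.9, 91.8 and 70.6 CPM, 2.06-fold lower (log2 change -1, SE 0.19, limma adjusted p = 4.46e-05). Both lay below every starved parental library. Kars was lower still than in starved parental cells, at 44.5, 49.5, 77.5, 60.1 and 43.4 CPM, 1.98-fold lower (log2 change -0.99, SE 0.20, limma adjusted p = 9.03e-05). Qars read 14.8, 13.7, 46.5, 9.49 and 27.1 CPM with shLuc and 38.2 to 57.3 in starved parental libraries, a 2.24-fold lower mean (log2 change -1.32, SE 0.38, limma adjusted p = 0.00725). Only shLuc replicate 3 overlapped, and after thinning the adjusted p was 0.333.

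Eprs, Aars and Farsb were lower by smaller amounts. Eprs read 297, 313, 419, 424 and 353 CPM with shLuc, 1.37-fold lower with no overlap (log2 change -0.47, SE 0.13, limma adjusted p = 0.00471, and 0.118 after thinning). Aars read 178, 261, 226, 149 and 350.1 CPM, 1.49-fold lower (log2 change -0.62, limma adjusted p = 0.00604), and overlapped. Farsb read 89.0, 85.2, 118, 66.5 and 89.6 CPM, 1.47-fold lower (log2 change -0.56, limma adjusted p = 0.0275). The call of Farsb was lost without starved replicate 4 (0.0809), shLuc replicate 2 (0.0506) or shLuc replicate 4 (0.0971), and after TMM scaling (0.0753), without the filter (0.089) or after thinning (0.172).

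Tars, Sars, Yars and Nars, which had risen in the parental line, were not called in this comparison. The log2 change was -0.04 for Tars, 0.15 for Sars, 0.24 for Yars and -0.27 for Nars (limma adjusted p = 0.0545). Nars was lower and called in 6 alternatives, among them quantile scaling (3.19e-06) and the fit without starved replicate 3 (0.0353). For Tars and Sars the shLuc libraries, at 349 to 564 and 313 to 412 CPM, kept above the control libraries. In the complex 6 of the 8 enzymes were lower and of the other 12 cytosolic genes 4 were, a split chosen after values were seen. Aimp2 was higher with shLuc at 119, 173, 186, 155 and 144 CPM (log2 change 0.57, SE 0.19, limma adjusted p = 0.0223), a call lost in 8 of 23 alternatives. Those included the fits without starved replicate 1 (0.0762), starved replicate 3 (0.0573), shLuc replicate 2 (0.0569) or shLuc replicate 3 (0.0723). Aimp1, at 92.9 ± 21.0 CPM, was not called.

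Of the 16 genes of the amino acid response 2 were higher with shLuc and 3 lower, beside 13.5% and 10.1% of all genes tested. Atf4 fell from 429.6 ± 39.7 to 195 ± 29.4 CPM (limma adjusted p = 1.9e-09) and Slc7a11, the cystine transporter, from 178 ± 37.9 to 40.5 ± 21.6 (1.31e-08). Slc7a5, a transporter of large neutral amino acids, fell from 76.3 ± 7.69 to 40.9 ± 9.61 CPM (0.00802). Nupr1 and Cebpb, which encodes a partner of ATF4, were higher still, at 1765 ± 169.5 and 1183 ± 187.5 CPM (6.81e-16 and 1.62e-08). Asns, at 459.96 ± 28.4 CPM, was not called. Among the 16 genes of mitochondrial translation 3 rose (Mtfmt, Mtif3 and Mrrf) and Gfm1 fell, beside the same 13.5% and 10.1% of all genes. None of the 8 transfer RNA factors was called by limma, and 2 had an unadjusted p under 0.05.

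The last comparisons asked what loss of Slug did in starved cells. With shSlug1, 0 of the 38 genes were called by limma, while 1.46% of all genes were. An unadjusted p under 0.05 was found for 6 members, and edgeR and DESeq2 each called 1, Yars (adjusted p = 0.0488 and 0.0423). With shSlug2, limma called 1 member, again Yars and higher, beside 0.649% of all genes in either direction and 0.473% higher, and edgeR and DESeq2 also called 1. Between the 2 Slug hairpins limma, edgeR and DESeq2 called 0 members, with 2 at an unadjusted p under 0.05, beside 0.513% of all genes by limma. Both Slug hairpins were compared with the same shLuc libraries, so these results share them.

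Yars read 104, 148, 136, 88.6 and 128 CPM with shLuc, 150.5, 213, 196, 137 and 151 with shSlug1, and 197, 207, 214, 249 and 175 with shSlug2. The shSlug2 mean was 1.72-fold higher, at 208 ± 27.0 against 121 ± 24.4 CPM (log2 change 0.79, SE 0.19, limma adjusted p = 0.0194), and the groups did not overlap. The shSlug1 mean of 169.6 ± 33.0 CPM was 0.49 higher on the log2 scale (SE 0.19, limma adjusted p = 0.214) and its libraries overlapped with shLuc. The direct log2 difference between the hairpins was 0.31 with a 95% interval from -0.07 to 0.69 (limma adjusted p = 0.64). The shSlug2 call was lost without shLuc replicate 1 (0.0655), shLuc replicate 4 (0.119) or shSlug2 replicate 4 (0.0973), after quantile scaling (0.0727), without the filter (0.0558) and after thinning (0.437). C77080, which overlaps the last exon of Yars, read 225 ± 32.6 CPM with shLuc and 187 ± 28.9 with shSlug2. That lower mean was not called (limma adjusted p = 0.725), and the part of C77080 reads in the Yars values was not tested.

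No other member was called by limma with all libraries in use. Log2 changes of the 16 mitochondrial genes ran from -1.40 to 0.70 with shSlug1 and from -1.40 to 0.74 with shSlug2. Rars read 207, 189.6, 241, 202 and 217 CPM with shSlug1 and 241, 204, 250.2, 244 and 184 with shSlug2, in each case above every shLuc library (158 to 183). Its log2 changes of 0.30 and 0.38 had limma adjusted p-values of 0.339 and 0.285. Libraries failed to overlap, with the Slug hairpin higher, in 1.05% of all genes for shSlug1 and 1.35% for shSlug2. Tars2, of the mitochondrial threonyl enzyme, read 48.3 ± 13.5 CPM with shSlug1 and 49.1 ± 10.3 with shSlug2 against 29.0 ± 6.25 with shLuc, with log2 changes of 0.70 and 0.74 (limma adjusted p = 0.272 and 0.38). Wars2 and Iars2 went the other way. Wars2 read 7.66 ± 5.35 CPM with shSlug1 and 12.2 ± 8.19 with shSlug2 against 17.5 ± 7.65 with shLuc. Iars2 read 34.2 ± 7.71 and 43.0 ± 13.2 CPM against 53.3 ± 14.3. Tars read 533 ± 55.8 CPM with shSlug2 and 416 ± 89.3 with shLuc (log2 change 0.38, limma adjusted p = 0.233), and was called at 0.046 without shLuc replicate 3. Iars at 98.5 ± 22.2 CPM with shSlug2 had a log2 change of 0.59 (limma adjusted p = 0.237). The median log2 change of the cytosolic genes was 0.06 with shSlug1 (0.16 without shLuc replicate 3) and 0.17 with shSlug2, beside -0.09 and 0.01 over all genes. The mitochondrial medians of -0.48 and 0.21 did not keep their sign: the first was 0.087 at a minimum of 20 CPM, and the second was -0.056 without shLuc replicate 1 and -0.011 without shLuc replicate 4.

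**Figure D5:**
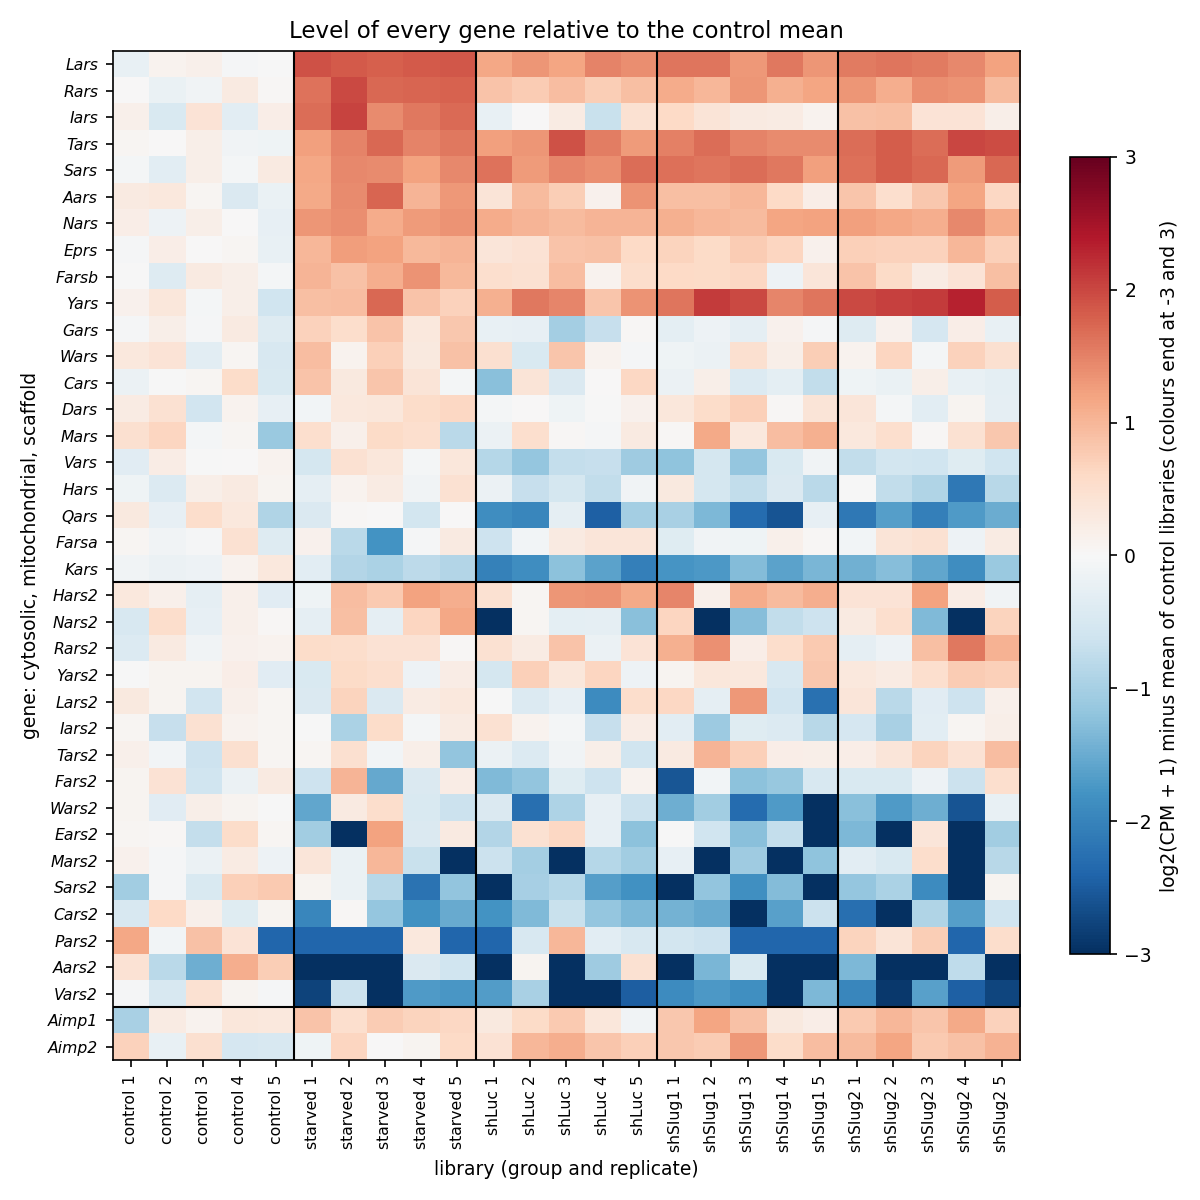
Level of each of the 38 genes (vertical axis, grouped as cytosolic, mitochondrial and scaffold) in each of the 25 libraries (horizontal axis) as log2(CPM + 1) minus the mean of the control libraries, with colours ending at -3 and 3. Of the 20 cytosolic rows 17 had a mean above control in starved parental libraries, Kars and Vars2 are blue in all starved groups, and Gars, Vars and Qars are lower with shLuc than in starved parental libraries.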

How the data were processed

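The deposited table held CPM values, for which the authors set each library to one common total, of 30926 genes in 25 libraries. Per the labels' protocols the PureLink kit gave the RNA and the QIAseq UPX 3' kit the libraries, and the build was mm10, per the submitters' processing notes. Not given in the sources used here are the aligner, the annotation, the use of molecular identifiers and strand, and the handling of shared reads. The last exon of 8 members overlaps an exon of another gene. For Aars it lies on the same strand, and for Farsb, Mars, Yars, Cars2, Fars2, Iars2 and Aimp2 on the opposite one. The part of neighbouring reads in their values was not tested. Every value was a whole multiple of its column's smallest value (100% within a tolerance of 0.001), so read counts were recovered. Limits of counts of 0 (3 counts) cover counting error only, while the 95% intervals are those of the limma fit and cover the spread between libraries.

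The 12473 genes that reached 5 CPM in 5 or more libraries entered limma-trend (R 4.3.3, limma 3.58.1). The model used log2(CPM + 1) of the 25 libraries together, a mean for each group and 20 residual degrees of freedom, and tests were two-sided with Benjamini-Hochberg adjustment over all genes tested. Fold changes on this scale can differ either way from the ratio of means for genes with few counts. Ratios are those of group mean CPM. On recovered counts, edgeR's quasi-likelihood test (edgeR 4.0.16) called 3068, 3002, 293, 137 and 88 genes in the 5 comparisons and DESeq2 1.42.0 called 2448, 2400, 261, 140 and 87, against 2799, 2942, 182, 81 and 64 with limma. The scripts were tested on simulated counts. No 2 libraries held identical values, and the highest correlation between libraries of a group was 0.8996.

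Members and gene lists were chosen with earlier results of these data known. Values in every library were given for the 6 cytosolic and 4 mitochondrial genes with the smallest p in starvation, the scaffolds and each member called in a hairpin comparison. Up to 4 genes of each other list, and pairs by amino acid, were given beside them, and genes outside this rule (such as Qars in starved cells) were named after their values were seen. Promoters came from RefSeq (GRCm38.p6), gene positions from GENCODE M21 on mm10, in which 30857 of 30926 IDs were found. Alternatives were pseudocounts of 0.5 and 5, no filter, 20 CPM, TMM and quantile scaling, totals without mitochondrially encoded genes, a fit of only 2 groups, a replicate block, edgeR, DESeq2, thinning to the shallowest library, each library left out, and the cytosolic set without Gars and Kars. Added after seeing the data was a fit without 3 libraries (starved replicate 3, with the fewest counts, and shSlug1 replicates 4 and 5, with the highest mitochondrially encoded share among hairpin libraries).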

Additional observations from a re-analysis of the deposited data

Results flagged for a closer look

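Of 200 sets of 5 libraries checked, 12 held a library far from the other 4 (Dixon's test), where chance flags about 1 in 20, or 10. In cytosolic genes these were Eprs in shSlug2 replicate 4 at 464 CPM (the others 375 to 383), Hars in shSlug1 replicate 1 at 71.4 (33.1 to 42.9), Kars in starved replicate 1 at 147 (94.5 to 105), Sars in shSlug1 replicate 5 at 302 (390 to 410) and Yars in starved replicate 3 at 164 (80 to 93.8). In mitochondrial genes they were Cars2 in starved replicate 2 at 15.6 CPM (3.19 to 6.3), Mars2 in shLuc replicate 3 at 0 (5.43 to 7.42), Pars2 in starved replicate 4 at 5.46 (all others 0) and in shSlug2 replicate 4 at 0 (5.76 to 7.66), and Rars2 in starved replicate 5 at 32.9 (43.6 to 47.8). Aimp1 was low in control replicate 1 at 34.8 CPM (75 to 87.9). The cytosolic sum was low in control replicate 5 at 2170 CPM (2410 to 2500).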

How the results depend on the processing

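The 11 cytosolic rises and the fall of Vars2 in starved cells kept their call in all 23 alternatives, and no called change reversed. In starvation the called genes numbered 1649 after thinning and 2484 to 2720 with each library left out, the called cytosolic genes 12 to 13 and the called mitochondrial genes 2 with a pseudocount of 5, 2 after thinning and 1 to 3 with a library left out. The mitochondrial median was -0.048 with a minimum of 20 CPM and -0.40 to -0.17 with a library left out, and the cytosolic median was 1.04 without Gars and Kars and 0.70 to 0.88. For shLuc against starved cells thinning gave 1606 genes, 7 members and a mitochondrial median of -0.22, edgeR gave a cytosolic median of -0.40, and leaving out a library gave 2537 to 2912 genes, 10 to 12 members, cytosolic medians of -0.56 to -0.47 and mitochondrial ones of -0.13 to -0.010.

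For shSlug1 against shLuc, all genes called numbered 121 with only the groups compared, 293 with edgeR, 76 after thinning and 99 to 197 with a library left out, members 1 with edgeR, 1 with DESeq2 and 0 to 0. The mitochondrial median was -0.21 with a pseudocount of 5, 0.087 with 20 CPM, -0.090 after thinning and -0.54 to -0.27, and the cytosolic one 0.11 with quantile scaling, 0.11 with edgeR, 0.12 with DESeq2, 0.14 without 3 libraries and 0.056 to 0.16. For shSlug2 against shLuc, all genes called numbered 137 with edgeR, 140 with DESeq2, 25 after thinning and 57 to 80, members 0 without a filter, with quantile scaling and after thinning and 0 to 2, and medians 0.15 to 0.20 and -0.06 to 0.27. Between the Slug hairpins the genes called numbered 38 with TMM, 18 after thinning, 34 without 3 libraries and 37 to 79, members 0 to 0. The cytosolic median there was 0.065 with TMM, 0.017 with quantile scaling, 0.027 without mitochondrially encoded genes, 0.063 with edgeR, 0.032 with DESeq2, 0.061 after thinning and 0.074 to 0.13, and the mitochondrial one 0.06 to 0.36. The causes were not tested.

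The share of higher calls was 25.3% for shSlug1 and went to 35.8% with quantile scaling, 35.8% without mitochondrially encoded genes, 51.9% with edgeR and 57.1% with DESeq2. For shSlug2 it went from 72.8% to 54.3% with quantile scaling and 56.4% without mitochondrially encoded genes. Between the hairpins it went from 95.3% to 78.8% without those genes, 70.5% with edgeR and 63.2% with DESeq2. Same-numbered libraries did not vary together (correlations from -0.0499 to 0.0264, 0 of 5 pairs over 0.1 in each comparison). With the replicate block limma called 2774, 2930, 182, 76 and 57 genes in the 5 comparisons and 14, 11, 0, 1 and 0 members. In starvation the median SE was 0.57 for the mitochondrial and 0.19 for the cytosolic genes on the log2 scale.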
